A study of Homo sapiens with 2 samples.

Results

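The genes of the cytosolic ribosome were followed in SKOV3, an established human ovarian cancer cell line, after prolonged exposure to olaparib, which inhibits the DNA repair enzymes PARP1 and PARP2. Members were chosen by gene name alone: the symbols RPL or RPS with a number and at most 1 letter or L behind it, RPLP0, RPLP1, RPLP2 and RPSA, with pseudogenes, the RPS6K kinases and RPS4Y genes left out. This gave 77 genes of 16978 in the deposited table, 45 of the large and 32 of the small ribosomal subunit, with 280 transcripts of 47892. Of the protein-coding human genes whose symbol fits the rule in GENCODE release 29, 5 had no listed transcript (RPL10L, RPL36AL, RPL39L, RPL3L and RPL6).

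The resistant library came from SKOV3 cells that were kept, per the labels, in olaparib, at a concentration below its IC50, without a break for 3 months or longer (SKOV3_OR). The reference library came from the untreated parental line. Both lines carry the genotype label WT and were grown in McCoy's 5A medium with serum, and total RNA was depleted of ribosomal RNA before library preparation. Each group had 1 library, so no difference below has a replicate check and each describes a single derived line against its parent, not resistance in general. In bulk RNA a smaller number of expressing cells and less RNA per cell cannot be told apart.

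Ribosomal proteins bind the ribosomal RNAs in a fixed order while subunits are assembled in the nucleolus, and most of them are needed in every cell. Their mRNAs begin with a terminal oligopyrimidine (5' TOP) motif through which mTOR signalling sets their translation, so that mRNA level and protein output can part. Many of these genes also carry small nucleolar RNAs (snoRNAs), which guide chemical modification of ribosomal RNA, inside their introns. Introns that stay in a transcript often leave it in the nucleus or send it to nonsense-mediated decay.

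The member values belong to transcripts without an annotated open reading frame, as far as they could be matched to GENCODE. Of the 280 member transcripts, 214 (76.4%) were retained-intron transcripts, 61 (21.8%) were processed transcripts, and 5 (1.79%) carried only an assembly identifier. These 5 weigh more in single genes, since RPL31-OT1 was the only listed transcript of RPL31. RPL30-OT1 had an estimated 5421 of 5757 RPL30 reads in the resistant library and 9927 of 10322 in the parental one. A gene's value here, the sum over its listed isoforms, therefore does not stand for its mRNA. The isoforms share much of their sequence with the mRNA, since a median of 56.0% of an isoform's bases lay in exons of protein-coding transcripts of the same gene. How reads were divided between them, between copies elsewhere in the genome and between strands is stated nowhere in the files or labels.

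The next stretches of intron show what some isoforms of 4 genes past 2-fold contain that the spliced coding transcript lacks, and were chosen because each is between 100 and 300 bases long and lies outside every exon of the gene's coding transcripts. They are given from 5′ to 3′ in the direction of transcription on GRCh38, from the GENCODE release 29 transcript sequences, and capitals mark the intact GT and AG ends of the intron in the coding transcript. RPL13-203 keeps the second intron whole (chr16:89561064-89561226, + strand, 163 bases) and RPL13-207 the third (chr16:89561369-89561577, + strand, 209 bases). The third intron holds the snoRNA SNORD68 at chr16:89561434-89561517.
RPL13-203: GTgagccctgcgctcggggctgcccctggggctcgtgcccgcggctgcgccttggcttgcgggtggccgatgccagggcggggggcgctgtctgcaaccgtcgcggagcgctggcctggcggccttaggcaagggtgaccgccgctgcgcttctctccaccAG
RPL13-207: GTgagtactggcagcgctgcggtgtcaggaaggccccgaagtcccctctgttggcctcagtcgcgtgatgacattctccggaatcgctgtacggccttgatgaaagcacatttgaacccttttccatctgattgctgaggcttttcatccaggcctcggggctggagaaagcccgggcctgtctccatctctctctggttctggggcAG
RPS2-215 keeps the fourth intron of RPS2 (chr16:1962910-1963148, − strand, 239 bases), which holds SNORA64 at chr16:1962973-1963106. RPS6-205 starts inside the fourth intron of RPS6 and keeps its last 188 of 1716 bases (chr9:19376652-19376839, − strand), up to the AG. RPS23-202 starts with a separate first exon that lies within the first intron of the coding transcript (chr5:82277931-82278143, − strand, 213 of 467 bases), so neither end of that intron is in it.
RPS2-215: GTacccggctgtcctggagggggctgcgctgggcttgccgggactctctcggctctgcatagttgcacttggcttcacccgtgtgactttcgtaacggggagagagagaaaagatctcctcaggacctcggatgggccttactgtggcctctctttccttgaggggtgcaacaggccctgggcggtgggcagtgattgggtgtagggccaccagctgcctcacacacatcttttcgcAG
RPS6-205: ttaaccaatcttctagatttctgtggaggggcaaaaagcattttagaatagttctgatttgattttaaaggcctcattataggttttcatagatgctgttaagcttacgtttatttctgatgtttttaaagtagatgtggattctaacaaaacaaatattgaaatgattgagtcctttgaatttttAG
RPS23-202: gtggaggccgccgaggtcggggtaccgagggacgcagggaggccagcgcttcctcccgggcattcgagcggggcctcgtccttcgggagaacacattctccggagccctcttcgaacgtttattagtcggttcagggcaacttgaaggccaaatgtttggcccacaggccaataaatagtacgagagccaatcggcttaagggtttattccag

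The listed values are transcript abundances per locus length, introns included, as worked out from the deposited fold changes, and they summed to 47632 in the resistant library, against 46879 in the parental one. The estimated count behind all transcripts came to 28.2 M reads in the resistant library and 34.8 M reads in the parental one. KRT7, KRT8, KRT18 and ERBB2, markers of ovarian carcinoma epithelium, were the only ones of 10 such markers with a mean of at least 1. KRT8 had 318 in resistant cells and 166 in parental cells, and KRT18 had 5.83 in resistant cells and 14.3 in parental cells. PAX8 was low, with 0.489 in resistant cells and 0.0738 in parental cells. KRT19 and EPCAM were near 0 in both libraries, and MUC16, WT1 and MSLN had no listed transcript. Of 11 markers of immune, endothelial and fibroblast cells, 3 were in the table, none with a mean of at least 1, and their summed value was 0.319 in resistant cells and 0.287 in parental cells.

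Taken over all members, the ribosomal protein genes were close to level between the lines. Their summed value was 4781 in the resistant library, against 5155 in the parental one, which was 10.0% of all listed value in resistant cells and 11.0% in parental cells. RPL13, a large subunit protein, accounted for that gap, because the sum without it was 4649 in resistant cells and 4589 in parental cells. The ordering of the genes was shared as well: the 5 highest members held 56.1% of the member sum in the resistant library, against 59.4% in the parental one, and 4 of the 5 were the same. The rank correlation of member levels between the libraries was 0.95 over the 77 genes, which share their annotation and locus lengths.

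Per locus length, RPL7A, which hosts several snoRNAs in its introns, had the highest value of all members, at 1134 in resistant cells and 1069 in parental cells. RPS18, a protein of the small subunit head, had 596 in the resistant library, against 489 in the parental one. RPL41, which encodes the smallest ribosomal protein, had 432 in resistant cells and 520 in parental cells. These genes together with RPL37, RPL4, RPL24, RPL3 and RPL13 spanned the top of the range, while the median member had 17.9 in the resistant library, against 16.7 in the parental one. RPL29, RPL31, RPL36, RPS16, RPS20 and RPS25 had a mean under 1, so 71 of the 77 members are counted as expressed in what follows.

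**Figure D1:**
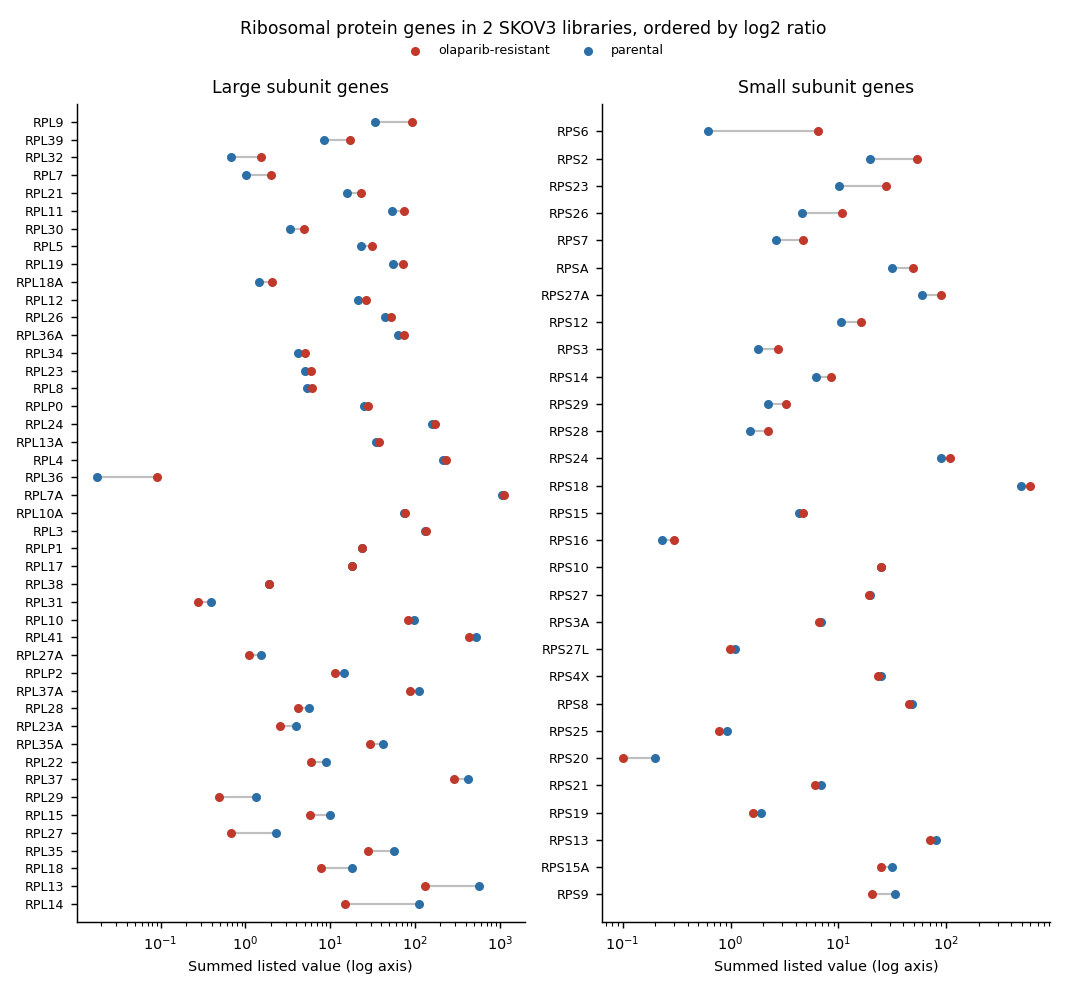
Summed listed value of 74 of the 77 ribosomal protein genes (horizontal log axis, value per locus length) in the olaparib-resistant (red) and the parental library (blue), with large subunit genes on the left, small subunit genes on the right and genes ordered from the highest log2 ratio at the top. A grey line joins the 2 libraries. Most pairs nearly coincide, while RPS6 at the top, RPL14 and RPL13 at the bottom and RPL36, whose mean is under 1, are spread apart.

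Genes were compared by a log2 ratio, resistant over parental, after a pseudocount of 1 was added to both values. Among the expressed members its median was 0.11, with an interquartile range of −0.23 to 0.41. All 5767 expressed genes of the table had a median of 0.16 and an interquartile range of −0.22 to 0.56. The log2 ratio was above 0 in 41 members and below 0 in 30. It was within 0.3 of 0 in 33 members and within 2-fold in 63. The sign of the family's median depends on scaling. With resistant values rescaled so that the median ratio of all expressed genes, taken without a pseudocount, was 1, the family's median was −0.11.

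At least 2-fold higher in the resistant library were 5 of 71 members (7.04%), beside 8.5% of all expressed genes. At least 2-fold lower were 3 of 71 (4.23%), beside 4.37% of all expressed genes. Both shares lie near the background. After rescaling 4 members were 2-fold higher and 5 lower (44.4% higher among those 2-fold apart, against 62.5% as deposited), while all genes counted 315 higher and 347 lower (47.6% higher, against 66.0% as deposited). The members just inside the threshold were RPS26 at 1.08 and RPL18 at −1.09, and those just outside were RPL39 at 0.93, RPL35 at −0.9998 and RPL27 at −0.97. RPL35 and RPL27 passed it after rescaling, and RPS26, at 0.88, did not. As plain ratios of the values, resistant over parental, RPL35 was at 0.491, RPL27 at 0.295 and RPL39 at 2.01. All of these are past 2-fold, so the pseudocount keeps them outside.

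**Figure D2:**
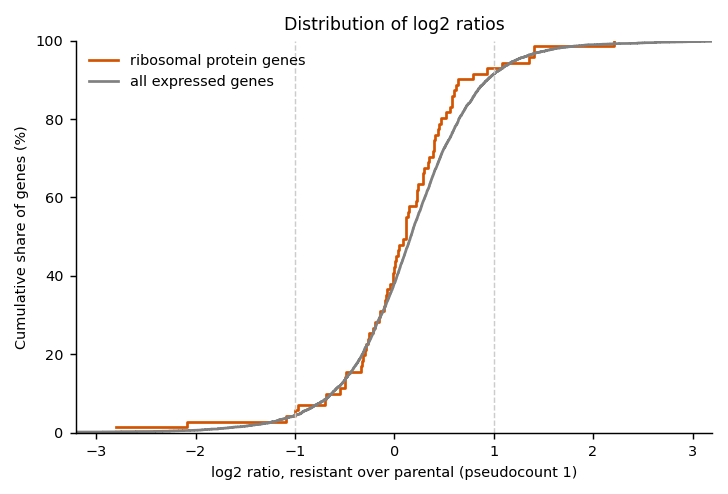
Cumulative share of genes (vertical axis, %) at or below each log2 ratio of the resistant over the parental library (horizontal axis, pseudocount 1) for the 71 expressed ribosomal protein genes (orange) and all 5767 expressed genes (grey). Dashed lines mark 2-fold. The curves run close together, with members at a median of 0.11 and all genes at 0.16, and RPL14 and RPL13 form the left tail of the orange curve.

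In the small subunit, 4 of 29 expressed genes reached 2-fold higher in the resistant library and 0 reached 2-fold lower. Over all expressed genes the shares were 8.5% higher and 4.37% lower, and the difference was not tested. The largest ratio of all members belonged to RPS6 (chr9:19375715-19380254, − strand), whose protein is the classical substrate of the S6 kinases downstream of mTOR. RPS6 had 6.45 in resistant cells and 0.614 in parental cells, a log2 ratio of 2.21. That value comes from a single isoform, RPS6-205, with an estimated 179 reads in the resistant library, against 24.7 in the parental one. It was the thinnest expressed member by its lower library, and the exact Poisson intervals, which cover counting error only, ran from 154 to 207 reads in the resistant and from 15.9 to 36.5 in the parental library. RPS6 stayed past 2-fold with a pseudocount of 5, at 1.03.

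RPS2 (chr16:1962052-1964860, − strand), a protein of the mRNA entry channel, had 53.4 in resistant cells and 19.5 in parental cells, a log2 ratio of 1.41. Of its 7 isoforms, 2 carried the difference. RPS2-215, with the fourth intron printed above, had 28.0 in the resistant library, against 7.07 in the parental one. RPS2-211, which keeps parts of introns 1 and 3, had 13.3 in resistant cells and 1.23 in parental cells. Its other main isoforms did not follow: RPS2-213, with introns 1 and 5, had 4.01 in the resistant library, against 5.90 in the parental one, and RPS2-204 had 3.34 in both.

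RPS23 (chr5:82273358-82278577, − strand) encodes a protein at the decoding centre, where codon and anticodon pair. Its value was 27.5 in resistant cells and 10.1 in parental cells, a log2 ratio of 1.35. Its isoform with the separate first exon, RPS23-202, had 16.6 in the resistant library, against 0.439 in the parental one, an estimated 1564 reads in resistant cells and 60.1 in parental cells. The second isoform, RPS23-203, was close to level at 10.9 in resistant cells and 9.69 in parental cells. The 2-fold difference of RPS23 thus rests on 1 isoform that was nearly missing from the parental library, and with RPS23-203, the isoform of larger mean, standing for the gene the log2 ratio was 0.15.

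RPS26 (chr12:56041351-56044697, + strand), which lines the mRNA exit channel near the bases before the start codon, had 10.8 in the resistant library, against 4.56 in the parental one, a log2 ratio of 1.08. It too is listed with 1 isoform, RPS26-202, which keeps intron 3. The estimated counts were 1064 in resistant cells and 653 in parental cells. RPS26 sat on the edge of the threshold and was under it with a pseudocount of 5, at 0.72.

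Proteins of the decoding site and the mRNA channel were also read as a list of 10 genes, all expressed. Of these, 9 had a log2 ratio above 0, 3 reached 2-fold higher and 0 reached 2-fold lower (beside 8.5% and 4.37% of all expressed genes), and the median was 0.52, beside 0.16 over all expressed genes. Members of this list were added after their values were seen, so its count is a description only. RPS27A, which is made as a fusion with ubiquitin, had 89.9 in resistant cells and 59.1 in parental cells (0.60). RPS3 of the entry channel, RPS14, RPS28 and RPS15 were between 0.11 and 0.44. The exception was RPS9, a neighbour of RPS2 and RPS3 at the channel entry, with 20.4 in the resistant library, against 33.8 in the parental one (−0.70).

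Outside that list, RPSA, known outside the ribosome as the laminin receptor, had 49.0 in resistant cells and 31.5 in parental cells (0.62). RPS7, which can bind the p53 regulator MDM2 when it is free of the ribosome, had 4.71 in the resistant library, against 2.65 in the parental one (0.64). RPS12 had 16.01 in resistant cells and 10.5 in parental cells (0.56). Apart from RPS9, the lowest small subunit ratio was that of RPS15A (−0.32).

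In the large subunit, 1 of 42 expressed genes reached 2-fold higher and 3 reached 2-fold lower (beside 8.5% and 4.37% of all expressed genes). The member furthest down was RPL14 (chr3:40457292-40468587, + strand), with 15.1 in the resistant library, against 110.8 in the parental one, a log2 ratio of −2.80. Its main isoform RPL14-208 is annotated as a retained-intron transcript and keeps part of the first intron of the reference transcript. However, 98.4% of its bases lay in exons of protein-coding RPL14 transcripts, so nearly all of its sequence is shared with them. RPL14-208 had 9.34 in resistant cells and 105.9 in parental cells, an estimated 1991 reads in resistant cells and 32700 in parental cells. The minor isoforms RPL14-206 and RPL14-205 lay the other way: RPL14-206 had 1.74 in the resistant library, against 0.868 in the parental one, and RPL14-205 had 1.97 in resistant cells and 0.735 in parental cells.

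RPL13 (chr16:89560657-89566828, + strand), a protein on the solvent side of the large subunit, had 132.7 in the resistant library, against 565.7 in the parental one, a log2 ratio of −2.08. Both isoforms with a printed intron were lower. RPL13-203, with the second intron, had 45.4 in resistant cells and 354.6 in parental cells. RPL13-207, with the third intron and SNORD68, had 75.3 in the resistant library, against 199.2 in the parental one. RPL13-203 differed more than RPL13-207, so that RPL13-207 led the gene in the resistant library (56.7% of its value) and RPL13-203 in the parental library (62.7%).

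RPL18 (chr19:48615328-48619536, − strand), in which mutations have been found in Diamond-Blackfan anaemia, had 7.90 in resistant cells and 17.9 in parental cells, a log2 ratio of −1.09. RPL18-213, with introns 3 and 4 kept, had 0.183 in the resistant library, against 4.23 in the parental one. The leading isoform RPL18-215 was nearer to level, at 5.96 in resistant cells and 9.23 in parental cells, and alone it gave −0.55. RPL18 was not 2-fold lower with a pseudocount of 5 either, at −0.83.

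RPL9 (chr4:39452521-39458949, − strand) was the only large subunit gene at least 2-fold higher by the log2 ratio with a pseudocount of 1. Without a pseudocount, the values of RPL39 and RPL32 were 2.01-fold and 2.23-fold higher as well. It had 91.4 in the resistant library, against 33.96 in the parental one, a log2 ratio of 1.40. RPL9-210, which keeps part of the fifth intron, had 64.5 in resistant cells and 14.5 in parental cells. RPL9-213 was close to level at 2.96 in resistant and 3.41 in parental cells.

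The proteins that line the polypeptide tunnel or surround its exit, where nascent chains leave the ribosome, were mixed. Of 8 expressed genes of this list 4 were above 0 and 4 below, and the median was 0.05. None was past 2-fold by the log2 ratio with a pseudocount of 1. RPL35, at the exit, had 28.2 in resistant cells and 57.3 in parental cells (−0.9998), and its main isoform RPL35-203, which keeps the first intron, had 24.5 in the resistant library, against 52.9 in the parental one. RPL39, which lines the tunnel, had 16.96 in resistant cells and 8.43 in parental cells (0.93). RPL23A, where the signal recognition particle docks, had 2.53 in the resistant library, against 3.96 in the parental one (−0.49), and RPL22 had 5.97 in resistant cells and 8.85 in parental cells (−0.50).

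RPL5 and RPL11 join the 5S ribosomal RNA in a particle that binds MDM2 when ribosome assembly is disturbed. RPL5 had 31.4 in the resistant library, against 23.3 in the parental one (0.41), and RPL11 had 74.8 in resistant cells and 53.7 in parental cells (0.47). The stalk proteins, which recruit the translation factors, were nearly level. RPLP0 was at 0.13, RPLP1 at 0.01, RPL12 of the stalk base at 0.30 and RPLP2 at −0.30, and the median of these 4 genes was 0.07.

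Diamond-Blackfan anaemia is an inherited failure of red cell formation caused mostly by loss of 1 copy of a ribosomal protein gene. All 17 genes of this list were expressed, 9 were above 0 and 8 below, and the median was 0.02. By the log2 ratio 1 reached 2-fold higher (RPS26) and 1 reached 2-fold lower (RPL18), beside 8.5% and 4.37% of all expressed genes. RPL15 had 5.73 in the resistant library, against 9.82 in the parental one (−0.69), and RPL27 had 0.671 in resistant cells and 2.27 in parental cells (−0.97). RPS10 was at 0.02 and RPS27 at −0.02, and RPS19, the gene most often mutated in the disease, was at −0.15.

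By summed value as deposited, the large subunit was lower and the small subunit higher in the resistant library, while the gap between their medians depended on the filter. The large subunit genes had a median log2 ratio of 0.07 and the small subunit genes of 0.28. The summed value of the large subunit was 3486 in resistant cells and 4083 in parental cells, and that of the small subunit was 1295 in resistant cells and 1072 in parental cells. Most of the large subunit gap lay in RPL13 (132.7 in resistant and 565.7 in parental cells) and RPL14 (15.1 in resistant and 110.8 in parental cells). The sums were not recomputed without these genes or after rescaling, so they do not describe a trait of either subunit as a whole. The difference of medians, large minus small, was −0.22, and it was 0.05 among the 53 members with a mean of at least 5. Without a filter on low values it was −0.05 over all 77.

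Some isoforms differed far more than the sum of their gene. In the authors' deposited table, which gives a log2 fold change and an adjusted p for each transcript from 1 library a group, 26 of 280 member transcripts (9.29%) were higher in the resistant library at an adjusted p under 0.05, beside 23.6% of all transcripts. By the same threshold, the authors' deposited table had 44 members (15.7%) lower, beside 22.3% of all transcripts. At an adjusted p under 0.01 the authors' deposited table had 20 members higher (7.14%, beside 19.1%) and 34 lower (12.1%, beside 17.7%). With a fold change of at least 2 required as well as an adjusted p under 0.05, the authors' deposited table had 25 members higher (8.93%, beside 23.4%) and 42 lower (15%, beside 22.1%). Among transcripts with a mean of at least 1, the authors' deposited table called 20 of 189 members (10.6%) higher, beside 17.3%, and 26 of 189 (13.8%) lower, beside 19% of all such transcripts. The member shares were not tested against the background. The files and labels do not name the test behind those p-values, which compare 2 libraries, not 2 conditions. The deposited fold changes lie 0.28 lower on the log2 scale than the ratios of listed values, so that directions near 0 can differ between the scales.

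Called isoforms split by subunit as follows. The authors' deposited table had 16 higher and 36 lower among the 187 large subunit isoforms, and 10 higher and 8 lower among the 93 small subunit isoforms. Over all transcripts it had 23.6% higher and 22.3% lower, above the shares of each subunit, and the split was not tested. The member isoform with the highest deposited fold change was RPS24-206, a processed transcript of a gene with many splice forms. RPS24-206 had a value of 9.24 in the resistant library, against 0.0280 in the parental one, an estimated 6697 reads in resistant cells and 29.4 in parental cells. Its log2 fold change in the authors' deposited table was 8.04 (adjusted p = 1.05e-41). The gene as a whole was near level, at 108.7 in resistant cells and 88.8 in parental cells. RPS24-212 had 55.0 in resistant cells and 50.1 in parental cells, and RPS24-210 had 36.2 in resistant cells and 18.9 in parental cells. RPS24-217, at 3.50 in resistant cells and 10.2 in parental cells, lay the other way, as did RPS24-211, at 0.845 in the resistant library, against 4.46 in the parental one.

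Other isoforms that differed several-fold were found in genes with little difference in sum. RPL26 encodes a protein beside the tunnel exit that can also bind the p53 mRNA. RPL26-207, which keeps part of the first intron, had 17.3 in resistant cells and 1.002 in parental cells, and the authors' deposited table gives it 3.83 (adjusted p = 2.63e-15). RPL26-201 held most of the gene in both libraries, at 33.5 in the resistant library, against 41.6 in the parental one. RPL13A, whose protein also silences translation of inflammatory mRNAs, had an isoform on the opposite side: RPL13A-211 had 1.69 in resistant cells and 9.67 in parental cells, with −2.80 in the authors' deposited table (adjusted p = 2.09e-09).

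RPS9-211 had 1.41 in the resistant library, against 15.2 in the parental one, and its log2 fold change in the authors' deposited table was −3.71 (adjusted p = 6.32e-15). RPS9-210, with part of intron 3, had 13.1 in resistant cells and 10.8 in parental cells. The gene's ratio of −0.70 therefore came from RPS9-211, and RPS9-210 alone, the isoform of largest mean, gave 0.25. RPL4, which reaches into the tunnel, had RPL4-207 at 13.3 in the resistant library, against 43.7 in the parental one, with −1.998 in the authors' deposited table (adjusted p = 1.13e-05), while its main isoform RPL4-214 had 178.2 in resistant cells and 139.1 in parental cells.

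For the genes past 2-fold, the isoforms described above were called as follows. The authors' deposited table lists RPL14-208 at −3.79 (adjusted p = 1.31e-15), RPL13-203 at −3.25 (adjusted p = 2.65e-12) and RPL18-213 at −4.77 (adjusted p = 2.43e-19). On the higher side the authors' deposited table lists RPS23-202 at 4.95 (adjusted p = 1.49e-21), RPS2-211 at 3.14 (adjusted p = 3.05e-11), RPS6-205 at 3.08 (adjusted p = 1.38e-08) and RPL9-210 at 1.87 (adjusted p = 4.25e-05). RPS26-202 was at 0.95 there, with an adjusted p of 0.048 in the authors' deposited table. The authors' deposited table also lists RPS2-215 at 1.70 (adjusted p = 1.98e-04) and RPL13-207 at −1.69 (adjusted p = 2.09e-04). RPL14-205, on the opposite side from its gene, was at 1.13 in the authors' deposited table (adjusted p = 0.024). The described isoforms RPL14-206, RPL18-215, RPS2-213, RPS2-204, RPS23-203 and RPL9-213 were not called there at an adjusted p under 0.05.

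**Figure D3:**
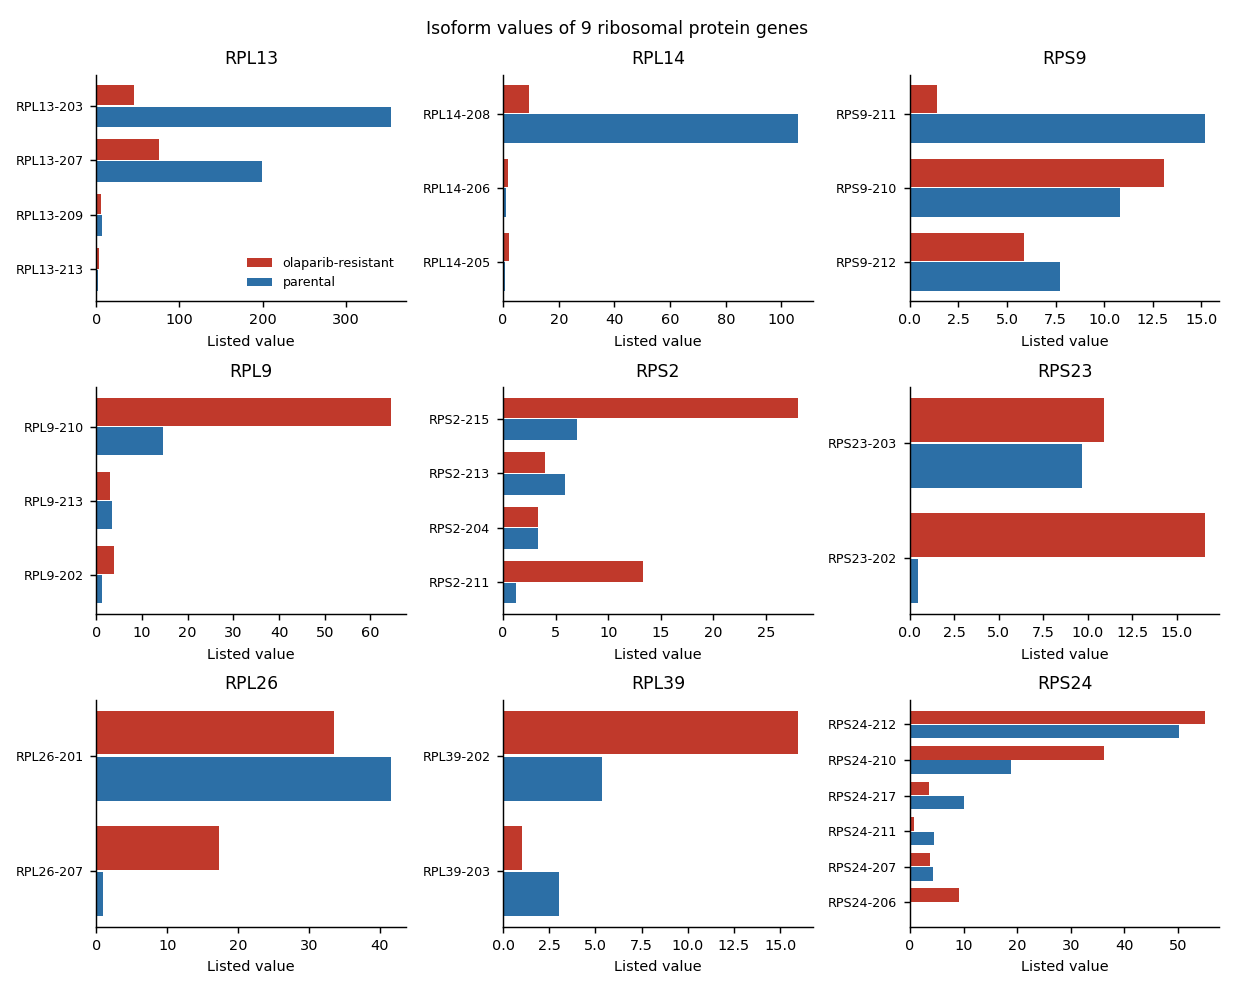
Listed value (horizontal axis, per locus length, from 0) of the main isoforms of 9 ribosomal protein genes in the olaparib-resistant (red, upper bar) and the parental library (blue, lower bar). Isoforms shown had at least 10% of the gene in a library or a value of at least 3, with 1 isoform left out. RPL14-208, RPL13-203 and RPS9-211 are long in blue, and RPL9-210, RPS2-215, RPS23-202 and RPL26-207 are long in red.

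The make-up of each gene was compared over the 60 expressed members with at least 2 isoforms. The leading isoform, that of largest value, differed between the libraries in 8 of 60 members (13.3%), beside 34.9% of the 5032 expressed genes with 2 or more isoforms. Members sit higher than most genes, and among genes with a mean of at least 10 the shares were closer, at 7 of 43 members (16.3%) beside 24.4%. The 8 genes were RPL10A, RPL13, RPL23A, RPLP2, RPS13, RPS23, RPS27A and RPS9. In RPL10A the lead passed between processed transcripts: RPL10A-203 held 43.9% of the gene in the resistant library, against 24.5% in the parental one, and RPL10A-202 held 38.3% in resistant cells and 55.6% in parental cells. In RPS13 the leading isoforms were close in both libraries, RPS13-208 at 37.0% in the resistant library, against 28.0% in the parental one and RPS13-203 at 33.6% in resistant and 34.4% in parental cells.

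The share of a gene's value that sits on different isoforms in the 2 libraries gives the same comparison on a continuous scale. Its median was 9.78% over the members and 20.5% over all genes with 2 or more isoforms. With a mean of at least 10 it was 11.0% in members and 13.4% in all genes. It exceeded 25% in 11 of 60 members (18.3%), beside 39.3% of all genes, and was under 10% in 32 members. RPS23 had the highest share, 56.0%, followed by RPS7 (38.6%), RPS9 (38.1%), RPS2 (36.3%) and RPL14 (33.7%). At the low end RPL27A and RPS15A kept their make-up within 1%, with values of 0.00270% and 0.315%.

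**Figure D4:**
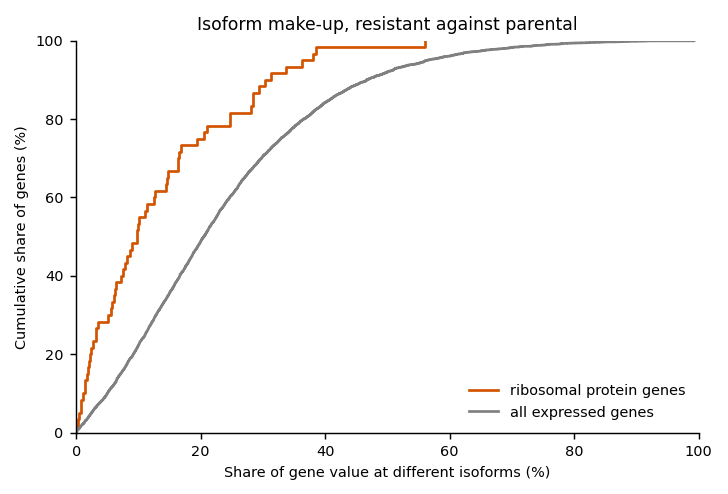
Cumulative share of genes (vertical axis, %) against the share of a gene's value that sits on different isoforms in the resistant and the parental library (horizontal axis, %), for the 60 expressed ribosomal protein genes with at least 2 isoforms (orange) and all 5032 such genes (grey). The orange curve lies to the left, with a median of 9.78% against 20.5%, and RPS23 is its last step at 56.0%.

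Within 9 of 60 members (15%) some isoforms were called higher and others lower in the authors' deposited table, beside 37.3% of all genes with 2 or more isoforms. These were RPL13A, RPL14, RPL26, RPL3, RPL39, RPL4, RPL9, RPS24 and RPS7. RPL39 shows the pattern in its simplest form. RPL39-202, which keeps the first intron, had 15.96 in resistant cells and 5.38 in parental cells, and RPL39-203, with part of the second intron, had 1.002 in the resistant library, against 3.05 in the parental one. In RPS7, RPS7-208 had 4.21 in resistant cells and 1.35 in parental cells, and RPS7-205 had 0.282 in the resistant library, against 1.08 in the parental one.

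Isoforms whose exons contain a whole snoRNA, because the host intron is kept, were set beside the rest. There were 49 such isoforms from 21 genes, with a summed value of 1010 in resistant cells and 1134 in parental cells, or 21.2% of the value of all matched member isoforms in resistant and 22.0% in parental cells. The authors' deposited table called 4 of them higher and 8 lower (24.5% in all), against 25.2% of the 226 isoforms without a snoRNA. The isoforms that keep at least 1 intron whole, 134 in number, were called in 22.4% of cases by the authors' deposited table, and the 141 that keep none in 27.7%. The 29 isoforms that keep the first intron whole had 2 higher and 8 lower calls (34.5%) in the authors' deposited table. Over all transcripts the authors' deposited table called 23.6% higher and 22.3% lower. The shares of these classes were not tested against each other or against all transcripts.

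The wider translation and ribosome assembly machinery was read beside the members, again as sums over listed isoforms. Counts past 2-fold use the log2 ratio with a pseudocount of 1, so plain ratios can exceed 2-fold where this one does not. These counts stand beside 8.5% higher and 4.37% lower of all expressed genes. The other 5' TOP genes, 15 in number and all expressed, had a median of 0.22 with none past 2-fold, and EEF1G, a subunit of the elongation factor that recharges eEF1A, was furthest out at 127 in the resistant library, against 67.1 in the parental one (0.91). Among 20 expressed genes of the small subunit processome, which cuts and folds the pre-18S RNA, 1 was 2-fold higher and 0 lower with a median of 0.33. That gene, WDR75, had 8.11 in resistant cells and 2.28 in parental cells (1.47). The 16 large subunit assembly genes had 1 higher and 0 lower with a median of 0.18, and NMD3, the export adaptor of the large subunit, had 1.87 in the resistant library, against 0.305 in the parental one (1.14).

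Of the 6 expressed snoRNP proteins 1 was 2-fold lower and none 2-fold higher by the log2 ratio with a pseudocount, with a median of −0.12. Fibrillarin (FBL), the methyltransferase of the box C/D particles, had 6.95 in resistant cells and 17.2 in parental cells (−1.19). The 9 RNA polymerase I genes had none past 2-fold and a median of 0.09, the 9 importins and dedicated chaperones likewise with 0.20. Of 8 genes that control ribosomal protein transcription and translation none was past 2-fold by that ratio (median 0.15). CNBP, which binds 5' TOP mRNAs, was nearest at 13.3 in the resistant library, against 6.24 in the parental one (0.99). The 4 expressed genes of nonsense-mediated decay, the pathway that degrades many retained-intron transcripts, had a median of 0.51. None was past 2-fold by that ratio, and SMG5 had 7.11 in resistant cells and 3.35 in parental cells (0.90). RACK1, a small subunit protein outside the naming rule, was level at 102 in the resistant library, against 106 in the parental one.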

How the data were processed

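Total RNA of 2 libraries was measured, 1 of olaparib-resistant and 1 of parental SKOV3 cells. Per the submitters' processing notes HISAT2 and StringTie were used, in versions not stated, and the notes name the build mm10, while the deposited identifiers are human: all 275 member transcripts with an Ensembl identifier had the same start and end in GENCODE release 29 (GRCh38). The authors deposited 1 value per transcript and library, in a unit that the file header does not name. For each transcript a log2 fold change, its p-value and its adjusted p-value were deposited too, by a test that no source used here names.

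Values were summed per gene name, and a gene counted as expressed where its mean of both libraries was at least 1. A pseudocount of 1 was used, which understates differences of low genes. No test was made, since each group has 1 library, and genes were counted at 2-fold. The deposited fold changes held a constant beside each count (0.114 for the resistant, 0.136 for the parental library), which showed where a count was 0. Over 3114 transcripts that were at 0 in the parental library the resistant value was the count per locus length (SD 0.0125 on the log2 scale, against 1.87 with exon length). Counts were estimated from this relation. Of 234 member isoforms with at least 20 estimated reads in both libraries, 233 had a ratio within 0.05 (log2) of the deposited fold change after a common offset. Of the members, 6 isoforms (2.14%) were at a count of 0 in a library though listed above 0 there, beside 22.3% of all transcripts. The largest value of these isoforms in either library was 0.472.

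The members, the gene lists and the rule for named genes (the 12 highest and 12 lowest log2 ratios, the 8 highest values, the members of the lists, and the isoforms with at least 10% of a named gene) were chosen with earlier results of these data known, so no list is independent support. RPS24-206, RPS24-211, RPS12, RPS13, RPS15A, RPL10A, RPL13A, RPL27A and the genes named only for their isoform calls fall outside that rule and were chosen after their values were seen. The lists of the mRNA channel and the exit tunnel were corrected for structural position after values were seen. Isoform structure, introns and snoRNAs were read from GENCODE by transcript identifier, with 1 protein-coding transcript of each gene as the reference for intron numbers. A few single genes and isoforms are not reported here by name, though they count in every total. Alternatives covered the pseudocount, the filter, scaling and the summing of isoforms. Scripts were tested on simulated data and ran in Python 3.11.15 with pandas 2.3.3, numpy 2.4.6 and scipy 1.17.1.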

Additional observations from a re-analysis of the deposited data

How the results depend on the processing

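The count of members at least 2-fold higher ranged between 4 and 6 over 9 alternatives. The count of members at least 2-fold lower, 3 as deposited, was 2 with a pseudocount of 5 and 5 with a pseudocount of 0.1. It was also 5 after rescaling to a median ratio of 1, where RPL35 and RPL27 joined. The rescaling by construction moves all genes down. The median log2 ratio of the members was between 0.05 and 0.11 under the other alternatives and −0.11 after rescaling. Leading isoforms differed in 4 of 46 members when each had to hold over 50% of its gene in each library. The share over all genes was not counted at this setting, and the cause was not tested. The large minus small difference of medians was 0.05 with a mean of at least 5 and between −0.22 and −0.05 otherwise, with these settings chosen after seeing the data. Of 210 values for 30 named genes under alternatives 184 stayed within 0.3 (log2) on the same side of 2-fold and 26 moved, RPS23 to 0.15 and RPS9 to 0.25 with the isoform of largest mean alone. The counts of deposited calls at an adjusted p under 0.01 were 20 higher and 34 lower. No paired analysis was possible because each group has 1 library. Without replicates no alternative shows how far a value would vary between cultures, and members under about 100 estimated reads, such as RPS6 in the parental library, are limited by counting.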

Other observations

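Genes named as ribosomal protein pseudogenes were listed at low values. Of 18 such listed names, 2 had a mean of at least 1, and their summed value was 9.03 in resistant cells and 7.19 in parental cells. RPL23AP82 had 3.11 in the resistant library, against 3.60 in the parental one, close to the value of RPL23A itself (2.53 in resistant cells and 3.96 in parental cells). RPL32P3 had 2.47 in the resistant library, against 1.47 in the parental one, above RPL32 in both (1.51 in resistant cells and 0.677 in parental cells). Reads shared between these copies and their parent genes were not separable in these files.

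The kinases of the RPS6K families, which phosphorylate the RPS6 protein or act beside it in growth signalling, were listed under their own names. RPS6KA4 had 11.6 in the resistant library, against 5.73 in the parental one (0.91), the largest ratio among the expressed ones. RPS6KB1 and RPS6KB2, the S6 kinases proper, were at 0.33 and 0.07. RPS6KA2 had a mean under 1, with 1.58 in resistant cells and 0.146 in parental cells.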
